A study of Mus musculus with 24 samples.

Results

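Expression of 8 core adipogenic transcription factor genes, Pparg, Cebpa, Cebpb, Cebpd, Cebpg, Rxra, Rxrg and Srebf1, was examined by RNA-seq in mouse fat precursor cells. The genes were taken by name from the gene column of the deposited tables, 8 of the 24825 genes listed. They were chosen with earlier results of these data known. All 8 were among the 12640 genes that passed a filter on low values (FPKM of at least 1 in at least 3 of the 24 libraries). FPKM is a count of fragments scaled to gene length and to library size. Rxrg passed that filter through the groups in which it was high.

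The cells were stromal vascular fraction cells of inguinal white fat from Nfia flox/flox mice, in which exon 2 of Nfia is flanked by loxP sites, and all of them had been immortalised with SV40 large T antigen. NFIA (nuclear factor I-A) belongs to the NFI family of DNA-binding transcription factors. The 4 kinds of cells were ctrl (empty retroviral vector), Cre (retroviral Cre recombinase), Cre + NFIA (Cre with full-length NFIA tagged by 3xFLAG) and lastly Cre + NFIA Δpro#3 (Cre with a 3xFLAG-tagged NFIA without a proline-rich segment at its C terminus, called Cre + Δpro#3 below). Each was sampled before differentiation (day 0) and 7 days after induction (day 7) in 3 libraries, which gave 8 groups. Cells were induced at confluence with isobutylmethylxanthine, indomethacin, dexamethasone, insulin, T3 and rosiglitazone, and kept afterwards in insulin, T3 and rosiglitazone, an agonist of PPARγ, so every day 7 library came from cells under that agonist. The NFIA proteins were expressed from retroviral vectors and not from the Nfia locus, and the immortalised fraction is a mixed preparation. The labels do not say whether the 3 libraries of a group came from separate cultures, so p-values measure the spread between these libraries, which may be technical.

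Libraries held 7733000 to 14622000 reads. Gene-level Nfia was 6.47 ± 0.264 FPKM in ctrl and 6.21 ± 0.773 FPKM in Cre-labelled libraries at day 0, while at day 7 the means were 9.55 ± 0.355 and 10.1 ± 0.588 FPKM (SD, n = 3), so this gene-level value did not fall with the label and does not check it. The study tested the deletion by other assays and reported efficient recombination and near-complete loss of NFIA mRNA and protein in Cre-expressing cells. Those assays are not analysed here, and directions given for Cre follow the label. Gene-level Nfia was 69.7 to 74.9 FPKM in Cre + NFIA and 59.7 to 61.7 FPKM in Cre + Δpro#3 at day 0. At day 7 it was 83.9 to 97.1 and 95.0 to 111 FPKM in that order. These values include reads of the transgene, and their part in comparisons of the mutant with full-length NFIA was not tested. The 6 adipocyte markers Adipoq, Plin1, Fabp4, Cidec, Lep and Retn summed to 10.96 to 34.5 FPKM at day 0. The 6 precursor markers Pdgfra, Pdgfrb, Ly6a, Cd34, Dlk1 and Thy1 were all detected in every group and summed to 2024 to 2369 FPKM at day 0. Summed endothelial, immune, skeletal muscle, mesothelial and Schwann cell markers each were at most 10.98 FPKM in every library, with the macrophage marker Adgre1 and the myogenic factor Myod1 at 0 in all 24.

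PPARγ, encoded by Pparg, is the nuclear receptor required for fat cell formation, and it binds DNA as a heterodimer with a retinoid X receptor such as RXRα (Rxra) or RXRγ (Rxrg). C/EBPβ and C/EBPδ (Cebpb, Cebpd) are induced early by the hormonal cocktail and act upstream of Pparg and of Cebpa, whose products then sustain each other. C/EBPγ (Cebpg) is a family member without a classical activation domain, and Srebf1 encodes SREBP-1, a regulator of lipid synthesis genes.

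By group mean the factors followed distinct courses. Pparg, Cebpa, Rxrg and Srebf1 were highest in day 7 ctrl and Cre + NFIA cells, lower in Cre-labelled libraries and lowest of the day 7 groups in Cre + Δpro#3. Cebpb and Cebpd were highest at day 0 in cells that expressed either NFIA protein. Rxra stayed between 34.0 and 47.8 FPKM in all 24 libraries.

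**Figure D1:**
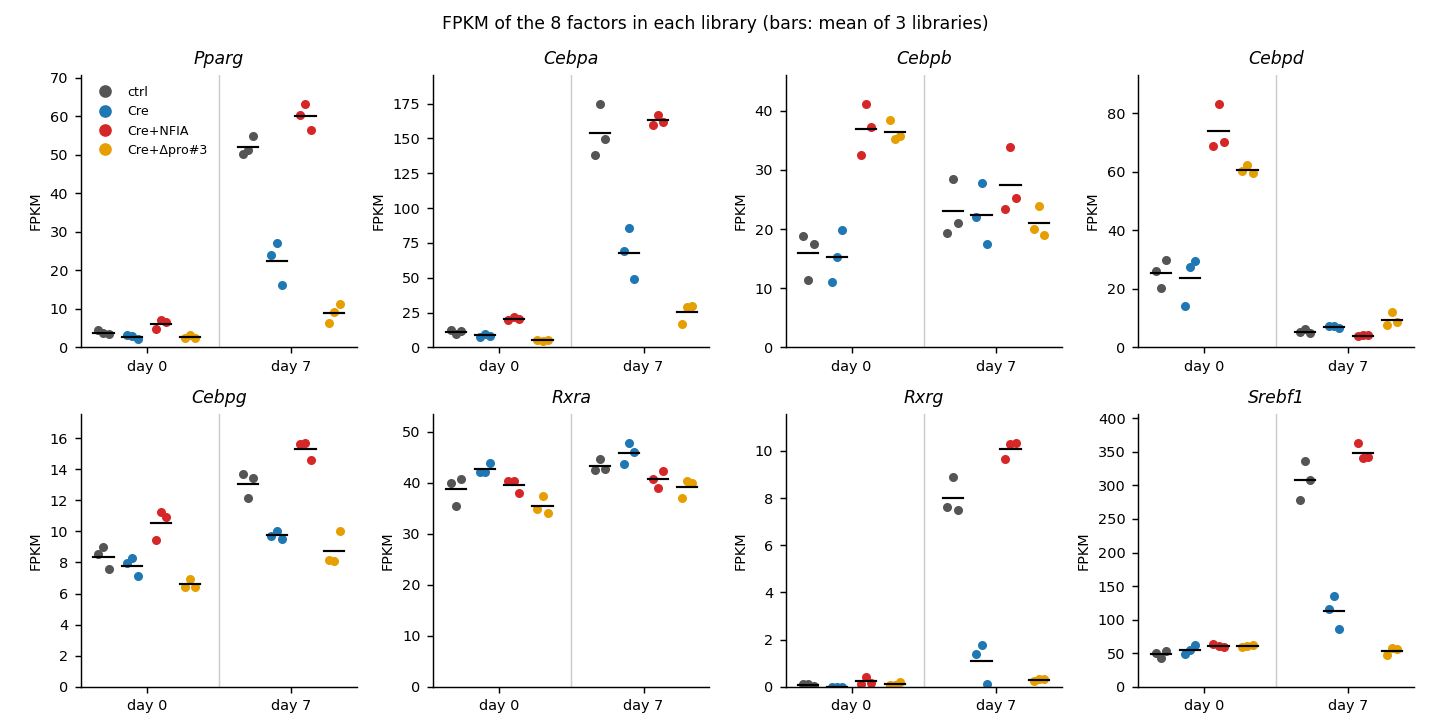
FPKM of each of the 8 factors (vertical axes, linear, from 0, one scale per gene) in each library of the 8 groups, with day 0 on the left and day 7 on the right of each panel. Each point is a library and each bar the mean of 3. Pparg, Cebpa, Rxrg and Srebf1 are high at day 7 in ctrl and Cre + NFIA, Cebpb and Cebpd at day 0 in Cre + NFIA and Cre + Δpro#3, and Rxra is nearly level.

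Pparg (chromosome 6, 115311239 to 115440419, plus strand, NCBIM37, the assembly named mm9) was at 4.54, 3.63 and 3.45 FPKM in ctrl libraries before induction and at 50.1, 51.2 and 54.8 FPKM on day 7. Cre-labelled libraries had 3.35, 3.01 and 2.16 FPKM before induction, and 24.05, 27.0 and 16.3 FPKM on day 7. At day 7 the ctrl and Cre values did not overlap. Cre + NFIA libraries had 4.89, 7.25 and 6.51 FPKM before induction, and 60.2, 63.2 and 56.5 FPKM on day 7. Cre + Δpro#3 libraries had 2.52, 3.12 and 2.39 FPKM, and on day 7 they had 6.38, 9.29 and 11.4 FPKM. At day 7 every Cre + NFIA library was thus above every ctrl library, and every Cre + Δpro#3 library was below every Cre library. In the order of group means, from Cre + NFIA, ctrl, Cre and Cre + Δpro#3 at day 7 to Cre + NFIA, ctrl, Cre and Cre + Δpro#3 at day 0, Cre and Cre + Δpro#3 at day 0 overlapped with each other and Cre + Δpro#3 at day 7 overlapped with Cre + NFIA at day 0. These gene-level values do not separate the widely expressed Pparg1 from the fat-enriched Pparg2 transcripts.

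Promoter sequence of the factors is given here because NFI proteins bind the half-site TTGGC and C/EBP proteins bind related palindromes, and these are the genes whose values with NFIA are described below. RefSeq windows (build GRCm38.p6) were found for 7 of the 8 genes, 13 windows in all, and the 250 bases before each transcription start were searched on both strands. Each of the 13 matched NCBIM37 exactly at 1 place, and positions are on NCBIM37. Capitals mark TTGGC or its reverse complement GCCAA. No window for Cebpd was used here.

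Pparg, start 1, chr6:115310912-115311161, plus strand: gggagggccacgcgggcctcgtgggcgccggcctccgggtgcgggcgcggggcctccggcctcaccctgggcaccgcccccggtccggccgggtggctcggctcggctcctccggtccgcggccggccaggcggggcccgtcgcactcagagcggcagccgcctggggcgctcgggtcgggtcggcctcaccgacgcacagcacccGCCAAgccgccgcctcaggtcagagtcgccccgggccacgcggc
Pparg, start 3, chr6:115371834-115372083, plus strand: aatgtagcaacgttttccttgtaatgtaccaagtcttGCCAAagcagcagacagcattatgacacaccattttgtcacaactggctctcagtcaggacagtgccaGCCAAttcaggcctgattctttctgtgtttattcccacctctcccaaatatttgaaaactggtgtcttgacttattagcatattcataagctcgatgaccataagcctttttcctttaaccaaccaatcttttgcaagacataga
Cebpa, chr7:35904062-35904311, plus strand: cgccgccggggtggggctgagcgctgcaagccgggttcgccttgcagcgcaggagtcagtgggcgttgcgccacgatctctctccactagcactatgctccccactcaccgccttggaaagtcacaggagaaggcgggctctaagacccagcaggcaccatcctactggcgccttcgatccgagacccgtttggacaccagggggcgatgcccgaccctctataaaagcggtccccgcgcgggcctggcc
Cebpb, chr2:167514165-167514414, plus strand: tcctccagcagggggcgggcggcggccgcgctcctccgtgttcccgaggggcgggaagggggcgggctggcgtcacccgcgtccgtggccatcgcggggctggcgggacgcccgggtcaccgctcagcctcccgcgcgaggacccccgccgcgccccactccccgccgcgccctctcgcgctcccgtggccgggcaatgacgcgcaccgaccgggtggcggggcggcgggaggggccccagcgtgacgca
Rxrg, start 2, chr1:169548146-169548395, plus strand: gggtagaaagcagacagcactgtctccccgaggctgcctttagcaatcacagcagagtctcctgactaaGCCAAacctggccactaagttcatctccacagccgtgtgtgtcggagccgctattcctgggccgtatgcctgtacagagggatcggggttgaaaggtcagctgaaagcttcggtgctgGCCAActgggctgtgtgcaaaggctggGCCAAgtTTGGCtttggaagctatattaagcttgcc

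A guide that the study designed to the Pparg2 promoter lies at -847 bases from start 3 of Pparg. The window of that start held 2 half-sites, at -213 and -145 bases from the start, and 2 matches to the C/EBP pattern TTGCNNAA, 1 of which overlaps a half-site. Pparg start 1 held 1 half-site and start 2 held 1, both without a match to TTGCNNAA. The windows of Cebpa and Cebpb held neither pattern. The second start of Rxrg held 4 half-sites and 1 C/EBP match, and its first start held none. Srebf1 starts held 0, 2 and 1 half-sites, Cebpg 1, and Rxra starts 1 and 0. Of all 32851 windows of the same length 41.5% held at least 1 half-site, 11.5% at least 2 and 0.505% at least 4, and 9.56% held TTGCNNAA. The full palindrome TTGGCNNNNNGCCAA was in no window of the 7 genes and in 0.0365% of all windows. A match of letters is a description of the sequence, and GC content of these windows ran from 40.8% at Pparg start 3 to 82.4% at Pparg start 1.

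The first question of the design was what differs at day 7 in Cre-labelled libraries. Of the 8 factors 5 were lower than in ctrl, Pparg, Cebpa, Cebpg, Rxrg and Srebf1, and 1 was higher, Cebpd. Among all genes tested 22.7% were lower and 36.1% higher (limma, adjusted p under 0.05). Pparg had a log2 fold change of -1.21 (SE 0.19, adjusted p = 0.000158), on the log2(FPKM + 1) scale that is used for all fold changes below. At least 3-fold changes were called in 1.51% of all genes and in 1 of the factors, Rxrg. The median change of the 8 factors was -0.79 beside 0.09 for all genes.

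Cebpa (chromosome 7, 35904312 to 35906945, plus strand), which drives the late differentiation program with PPARγ, was at 138, 175 and 150 FPKM in ctrl and at 69.3, 85.7 and 49.0 FPKM in Cre-labelled libraries at day 7. The groups did not overlap, and the log2 fold change was -1.20 (SE 0.21, adjusted p = 0.000469). Srebf1 (chromosome 11, 60012591 to 60036083, minus strand) was at 279, 336 and 308 FPKM in ctrl and at 116, 136 and 85.9 FPKM in Cre-labelled libraries (log2 fold change -1.46, SE 0.14, adjusted p = 4.46e-06). The files give 1 value for Srebf1 and do not separate SREBP-1a from SREBP-1c transcripts.

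Rxrg (chromosome 1, 169528515 to 169569754, plus strand), the retinoid X receptor with the most restricted expression, was at 7.62, 8.91 and 7.50 FPKM in ctrl at day 7. Libraries labelled Cre had 1.38, 1.76 and 0.115 FPKM, the last of these from 3 reads. The log2 fold change was -2.21 (SE 0.25, adjusted p = 1.55e-05), and it was -1.81 without that library. The size depends on the pseudocount, with -1.10 at a pseudocount of 5 and -3.56 by limma voom. Replicate 3 of Cre was also the lowest of the day 7 Cre libraries for all other factors but Rxra, and it had the lowest adipocyte marker sum of the 3, 3750 FPKM against 6738 and 8378 FPKM. Without it the same comparison again called 6 factors, and the log2 fold change of Pparg was -1.001, of Cebpa -0.98 and of Srebf1 -1.28.

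Cebpg (chromosome 7, 35831441 to 35841522, minus strand), which lies 62789 bases from Cebpa, was at 13.7, 12.1 and 13.4 FPKM in ctrl and at 9.70, 10.0 and 9.53 FPKM in Cre-labelled libraries, a change of -0.39 (SE 0.08, adjusted p = 0.00103). Cebpd (chromosome 16, 15887379 to 15888559, plus strand) was at 5.22, 6.15 and 4.80 FPKM in ctrl and at 7.27, 7.49 and 6.73 FPKM in Cre-labelled libraries (0.36, SE 0.13, adjusted p = 0.0359). That call was lost under 4 of 11 other settings, among them median-of-ratios scaling (0.25, adjusted p = 0.141) and quantile normalization (0.23, adjusted p = 0.181), and when any of 4 of 6 libraries was left out. For Cebpb the change was -0.04, with a 95% interval from -0.44 to 0.36 (adjusted p = 0.873), and for Rxra it was 0.08, from -0.03 to 0.20 (adjusted p = 0.198).

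Markers moved with these differences. At day 7 the adipocyte markers summed to 19824 to 23279 FPKM in ctrl, 3750 to 8378 in Cre-labelled libraries, 18648 to 18763 in Cre + NFIA and 620 to 1737 in Cre + Δpro#3, with 6 of 6 markers detected in ctrl and Cre + NFIA and 5 of 6 in the others. Lep was at 0 in every Cre + Δpro#3 library. Precursor markers summed to 502 to 552, 1109 to 1247, 528 to 598 and 1259 to 1515 FPKM in the same order, all 6 of them detected in each group. Their part in the values of the factors was not tested. In such bulk libraries fewer differentiated cells and less RNA per differentiated cell cannot be told apart.

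The next question was what full-length NFIA changes at day 7 in Cre cells. Relative to Cre-labelled libraries, 5 factors were higher, Pparg, Cebpa, Cebpg, Rxrg and Srebf1, and 2 were lower, Cebpd and Rxra, beside 27% of all genes higher and 35.9% lower. This comparison and the one before share the Cre libraries, so their values are not independent. At least 3-fold changes were called for Rxrg and Srebf1, 2 of 8 beside 3.63% of all genes. The median of the 8 factors was 0.94 and of all genes -0.06. Without Cre replicate 3 the log2 fold change of Srebf1 was 1.46, below 3-fold, while that of Rxrg was 2.12, still above it.

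Srebf1 was at 363, 341 and 342 FPKM in Cre + NFIA at day 7, above every other library (log2 fold change 1.64, SE 0.14, adjusted p = 9.46e-07). Rxrg was at 9.67, 10.3 and 10.3 FPKM, and every value exceeded those of the Cre libraries (2.52, SE 0.25, adjusted p = 3.52e-06, or 1.32 at a pseudocount of 5 and 3.91 by limma voom). The change of Pparg was 1.41 (SE 0.19, adjusted p = 3.6e-05). Cebpa was at 160, 167 and 162 FPKM (1.28, SE 0.21, adjusted p = 0.000233), within the range of the ctrl libraries. Cebpg was at 15.6, 15.7 and 14.6 FPKM (0.60, SE 0.08, adjusted p = 2.96e-05).

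Cebpd was lower, with 3.79, 4.19 and 4.15 FPKM in Cre + NFIA, all below the Cre libraries (-0.70, SE 0.13, adjusted p = 0.000644). Rxra (chromosome 2, 27531960 to 27618477, plus strand), the broadly expressed partner of PPARγ, was at 43.8, 47.8 and 46.1 FPKM in Cre-labelled libraries and at 40.7, 39.0 and 42.2 FPKM in Cre + NFIA. Its change of -0.17 (SE 0.05, adjusted p = 0.0142) was small and did not pass with median-of-ratios scaling (-0.08, adjusted p = 0.249) or without Cre replicate 2 (adjusted p = 0.0542) or Cre + NFIA replicate 2 (adjusted p = 0.0602). Cebpb (chromosome 2, 167514415 to 167515918, plus strand) was at 22.03, 27.7 and 17.5 FPKM in Cre-labelled libraries and at 23.4, 33.9 and 25.3 FPKM in Cre + NFIA, which overlap (0.29, 95% interval -0.11 to 0.69, adjusted p = 0.188).

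None of the 8 factors was called between Cre + NFIA and ctrl at day 7 by limma, beside 8.81% of all genes higher and 9.15% lower. Before adjustment 2 factors had p under 0.05, and limma voom on the reads recovered from FPKM called 0. A limma fit of these groups alone called Rxrg (adjusted p = 0.0375). Libraries of these groups did not overlap for Pparg, Cebpg, Rxrg and Srebf1, which were higher in Cre + NFIA. They did not overlap for Cebpd and Rxra either, which were lower, while Cebpa and Cebpb overlapped. The share of all genes so separated was not computed. Lack of a call thus does not show equal levels, and the intervals still allowed changes of moderate size. For Pparg the log2 difference was 0.20 with a 95% interval from -0.21 to 0.61, for Cebpa 0.09 (-0.38 to 0.55), for Srebf1 0.18 (-0.12 to 0.49) and for Rxrg 0.30 (-0.24 to 0.85). Cebpd was -0.34 (-0.63 to -0.05, adjusted p = 0.102) and Cebpg 0.21 (0.04 to 0.38, adjusted p = 0.0807).

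In cells with the Δpro#3 mutant 4 factors were lower at day 7 than in Cre-labelled libraries, Pparg, Cebpa, Rxra and Srebf1, and 0 were higher, beside 10% of all genes lower and 7.7% higher. No factor was called at 3-fold or more on the log2(FPKM + 1) scale, beside 0.625% of all genes. The median was -0.40 for the factors and 0.02 for all genes. Without Cre replicate 3 Cebpa passed 3-fold (-1.62, adjusted p = 0.000289), and Pparg had -1.43 (adjusted p = 0.000172).

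Cebpa was at 16.8, 29.1 and 29.5 FPKM in Cre + Δpro#3, each below the lowest Cre library (-1.41, SE 0.21, adjusted p = 0.00125). Srebf1 was at 46.8, 57.1 and 55.7 FPKM (-1.05, SE 0.14, adjusted p = 0.000714), the range that it had in all cells at day 0. The change of Pparg was -1.23 (SE 0.19, adjusted p = 0.00122). Rxra was at 37.0, 40.4 and 39.9 FPKM (-0.23, SE 0.05, adjusted p = 0.0125), a call that was lost without Cre replicate 2 (adjusted p = 0.0553) or Cre + Δpro#3 replicate 1 (adjusted p = 0.0607).

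Rxrg was at 0.254, 0.315 and 0.334 FPKM in Cre + Δpro#3, from 7, 9 and 10 reads. Its change of -0.58 (SE 0.25) was not called (adjusted p = 0.141), and without Cre replicate 3 it was -0.98 (adjusted p = 9.14e-05), so 1 library decided that call. For Cebpd, at 7.51, 11.998 and 8.72 FPKM, the change was 0.33 (SE 0.13, adjusted p = 0.115), and without Cre + Δpro#3 replicate 1 it was 0.46 (adjusted p = 0.0413). Cebpb was at 20.0, 23.9 and 19.1 FPKM and Cebpg at 8.18, 8.12 and 9.99 FPKM. Cebpb had -0.08 (95% interval -0.48 to 0.32), and Cebpg -0.14 (-0.31 to 0.02), neither of which passed the test. Without Cre + Δpro#3 replicate 3 Cebpg had -0.23 (adjusted p = 0.0352).

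Set directly against full-length NFIA at day 7, Cre + Δpro#3 cells had 5 factors lower and 1 higher, beside 28.9% of all genes lower and 40.4% higher. At least 3-fold changes were called for 4 factors, Pparg (-2.64, SE 0.19, adjusted p = 1.22e-07), Cebpa (-2.69, SE 0.21, adjusted p = 3.27e-07), Rxrg (-3.09, SE 0.25, adjusted p = 3.74e-07) and Srebf1 (-2.69, SE 0.14, adjusted p = 1.32e-08), beside 6.92% of all genes. The size for Rxrg depends on the pseudocount, with -1.51 at 5, -4.67 at 0.1 and -4.99 by limma voom. Cebpg was lower by a smaller step (-0.74, SE 0.08, adjusted p = 3.29e-06) and Cebpd was higher (1.02, SE 0.13, adjusted p = 2.29e-05). Cebpb had -0.37 (adjusted p = 0.0944) and Rxra -0.06 (adjusted p = 0.369). With median-of-ratios scaling, which moved the median of all genes by -0.10, these were also called, at -0.48 (adjusted p = 0.0396) and -0.18 (adjusted p = 0.0212).

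**Figure D2:**
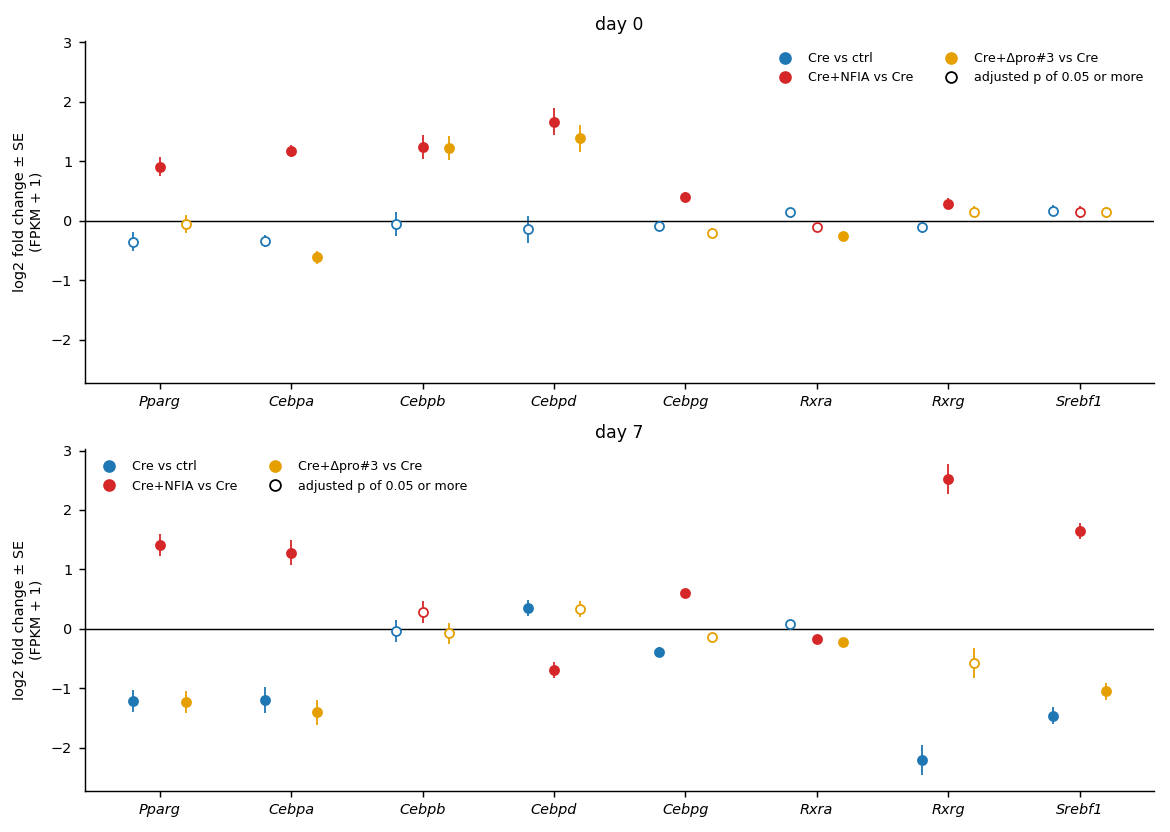
Log2 fold change on the log2(FPKM + 1) scale (vertical axes) of each factor, with its standard error, in Cre relative to ctrl and in both NFIA-expressing cells relative to Cre, at day 0 (upper panel) and day 7 (lower panel). Open points did not pass the adjusted p. At day 0 Cebpb and Cebpd are higher with both NFIA proteins, and at day 7 Pparg, Cebpa and Srebf1 are higher with full-length NFIA and lower with the mutant.

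At day 0, before any inducer was given, no factor was called between Cre-labelled libraries and ctrl by limma, beside 1.63% of all genes higher and 1.7% lower. Before adjustment 3 factors had p under 0.05, and limma voom called 0. Cebpa was at 12.3, 9.39 and 11.9 FPKM in ctrl and at 7.79, 9.65 and 8.34 FPKM in Cre-labelled libraries, groups that overlap (-0.34, 95% interval -0.58 to -0.11, adjusted p = 0.107). Without ctrl replicate 2 this was -0.45 (adjusted p = 0.0491). Pparg had -0.35 (-0.70 to -0.01, adjusted p = 0.236). Rxrg was read 3, 3 and 1 times in ctrl and not at all in Cre-labelled libraries, where 3 reads per library would be 0.149 FPKM on average, so no fold is given.

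With full-length NFIA 6 factors were higher at day 0 than in Cre-labelled libraries and 0 were lower, beside 14.7% of all genes higher and 12.9% lower. Rxrg was among the 6, from 3, 9 and 4 reads in Cre + NFIA and 0 in each Cre library. It passed the filter on low values only through day 7 groups. With quantile normalization 5 factors were called. The early C/EBP factors Cebpd and Cebpb were among those higher. Cebpd was at 14.2, 27.4 and 29.4 FPKM in Cre-labelled libraries and at 68.95, 83.3 and 70.1 FPKM in Cre + NFIA (log2 fold change 1.67, SE 0.23, adjusted p = 0.000337). Cebpb was at 11.02, 15.2 and 19.8 FPKM in Cre-labelled libraries and at 32.6, 41.2 and 37.2 FPKM in Cre + NFIA (1.25, SE 0.20, adjusted p = 0.00111). For both genes the groups did not overlap.

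Cebpa was at 19.5, 21.9 and 20.4 FPKM in Cre + NFIA at day 0 (1.17, SE 0.11, adjusted p = 2.07e-05), above every other day 0 library. Pparg rose by 0.91 (SE 0.16, adjusted p = 0.0015) to at most 7.25 FPKM, below the day 7 values of ctrl, Cre and Cre + NFIA. Cebpg was at 7.93, 8.31 and 7.11 FPKM in Cre-labelled libraries and at 9.42, 11.3 and 10.9 FPKM in Cre + NFIA (0.39, SE 0.09, adjusted p = 0.00623). Rxrg rested on 3, 9 and 4 reads in Cre + NFIA. Its mean was at least 1.52-fold above the level of 3 reads per library in Cre, 0.149 FPKM. By library Rxrg was at 0.119, 0.403 and 0.158 FPKM, so replicate 1 lay below that level and replicate 3 close to it. Its call at day 0 (adjusted p = 0.0345) was lost under 5 of the other settings and without any of 4 libraries. The median of the 8 factors was 0.65, beside 0.02 for all genes. With Rxrg at its bound, a ratio of FPKM without the added 1, the median of the factors was 0.76. No such bound was put into the median of all genes.

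Relative to ctrl, Cre + NFIA cells at day 0 also had 6 factors higher and 0 lower, beside 18.8% and 14.3% of all genes. Cebpd was 1.52 (SE 0.23, adjusted p = 0.000554) and Cebpb 1.19 (SE 0.20, adjusted p = 0.00127) above ctrl on the log2 scale, and Cebpa 0.83 (SE 0.11, adjusted p = 0.000201). Pparg (0.56, adjusted p = 0.0188), Cebpg (0.30, adjusted p = 0.0216) and Srebf1 (0.32, adjusted p = 0.0245) passed narrowly. Without Cre + NFIA replicate 2 these last calls were lost and 3 factors were called, and leaving out ctrl replicate 2 or 3 or Cre + NFIA replicate 1 or 3 lost 1 or 2 of them.

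At day 0 Cebpb and Cebpd were also higher with the mutant, and Cebpa and Rxra were lower. In Cre + Δpro#3, Cebpb was at 38.4, 35.3 and 35.6 FPKM (1.23 over Cre-labelled libraries, SE 0.20, adjusted p = 0.00224) and Cebpd at 60.2, 62.3 and 59.6 FPKM (1.39, SE 0.23, adjusted p = 0.00214). Cebpa was lower, at 5.68, 4.72 and 5.34 FPKM (-0.62, SE 0.11, adjusted p = 0.00293), and Rxra was at 34.8, 37.5 and 34.0 FPKM against 42.2, 42.0 and 43.8 FPKM in Cre-labelled libraries (-0.26, SE 0.06, adjusted p = 0.0107). In all 2 factors were higher and 2 lower, beside 9.26% and 9.02% of all genes. Pparg had -0.05 (95% interval -0.40 to 0.29, adjusted p = 0.86).

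The direct test of mutant against full-length NFIA at day 0 called 3 factors lower and 0 higher, beside 5.59% and 4.5% of all genes. They were Cebpa (-1.79, SE 0.11, adjusted p = 3.59e-06), Pparg (-0.96, SE 0.16, adjusted p = 0.00238) and Cebpg (-0.60, SE 0.09, adjusted p = 0.00103), for which Cre + Δpro#3 had 6.45, 6.94 and 6.41 FPKM. For Cebpb the difference was -0.02 with a 95% interval from -0.47 to 0.43 (adjusted p = 0.986), and for Cebpd -0.28, from -0.78 to 0.22 (adjusted p = 0.55). Srebf1 had -0.01 (-0.21 to 0.20). Rxrg had -0.14 (-0.33 to 0.06), from 2, 2 and 6 reads in Cre + Δpro#3 against 3, 9 and 4 in Cre + NFIA. Its value ran from -0.88 to -0.03 under other settings, so the narrow interval does not show equal levels. Srebf1 was at 43.0 to 63.6 FPKM in all 12 libraries of day 0, and its groups overlapped in part.

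Differentiation itself was followed in each kind of cells from day 0 to day 7. In ctrl cells 7 factors were higher at day 7 and 1, Cebpd, was lower, beside 32.9% of all genes higher and 38.1% lower. At least 3-fold changes were called in 5, Pparg, Cebpa, Cebpd, Rxrg and Srebf1, beside 8.5% of all genes. Cebpa rose by 3.67 (SE 0.18, adjusted p = 1.39e-13) and Pparg by 3.45 (SE 0.18, adjusted p = 3.74e-13). Rxrg rose by 3.05 (SE 0.20, adjusted p = 2.07e-11), from 3, 3 and 1 reads at day 0, and the size depends on the pseudocount, with 1.35 at a pseudocount of 5, 5.50 at 0.1 and 6.46 by limma voom. Srebf1 was at 50.5, 43.0 and 53.8 FPKM at day 0 and rose by 2.62 (SE 0.12, adjusted p = 8.97e-14). Cebpd was at 26.3, 20.2 and 29.8 FPKM at day 0 and fell by 2.04 (SE 0.19, adjusted p = 5.82e-09).

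Cebpb in ctrl was at 18.9, 11.4 and 17.5 FPKM at day 0 and at 19.4, 28.5 and 21.1 FPKM at day 7, a change of 0.51 (SE 0.20, adjusted p = 0.0287). It was 0.31 without ctrl day 0 replicate 2 (adjusted p = 0.194) and 0.36 without ctrl day 7 replicate 2 (adjusted p = 0.157). Rxra was at 40.03, 35.4 and 40.8 FPKM at day 0 and at 42.4, 44.6 and 42.6 FPKM at day 7 (0.16, SE 0.06, adjusted p = 0.0163). That call was lost without ctrl day 0 replicate 2 (0.09, adjusted p = 0.128) or ctrl day 7 replicate 2 (0.13, adjusted p = 0.0648), and with quantile normalization (0.06, adjusted p = 0.283).

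In Cre-labelled libraries 6 factors were higher and 1 lower at day 7, beside 30% and 21.6% of all genes. On the log2(FPKM + 1) scale at least 3-fold changes were called for Pparg (2.59, SE 0.18, adjusted p = 1.83e-10) and Cebpa (2.82, SE 0.18, adjusted p = 5.29e-11), 2 of 8 beside 2.73% of all genes. Srebf1 rose by 0.99 (SE 0.12, adjusted p = 1.03e-06) from 48.5, 55.0 and 62.9 FPKM. Rxrg, at 0 on day 0, was called on that scale at less than 3-fold, while its mean FPKM at day 7 was at least 7.25-fold higher than the level of 3 reads per library. That mean rests on replicates 1 and 2 (1.38 and 1.76 FPKM). Replicate 3 of day 7, at 0.115 FPKM, lay below that level, which was 0.149 FPKM. Cebpd fell by 1.53 (SE 0.19, adjusted p = 1.07e-06). The call of Cebpb (0.53, adjusted p = 0.0335) was lost under 3 of 10 other settings and without any of 4 of 6 libraries, and without Cre day 0 replicate 1 the change was 0.33 (adjusted p = 0.204).

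Cre + NFIA cells had 5 factors higher and 1 lower at day 7, beside 31.8% and 38.3% of all genes, and 5 changed at least 3-fold, beside 9.08%. Cebpd fell by 3.89 (SE 0.19, adjusted p = 1.55e-13). By group mean it was highest of the 4 kinds of cells at day 0 and lowest at day 7. Pparg rose by 3.09, Cebpa by 2.93, Rxrg by 3.18 and Srebf1 by 2.49, each with an adjusted p of at most 1.01e-11. The size for Rxrg, from 3, 9 and 4 reads at day 0, depends on the pseudocount. It was 1.53 at a pseudocount of 5, below 3-fold, 5.06 at 0.1 and 5.55 by limma voom. Cebpb had -0.42 (SE 0.20, adjusted p = 0.068), and without its day 7 replicate 2 it had -0.58 (adjusted p = 0.0255).

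In Cre + Δpro#3 cells 3 factors were higher and 2 lower, beside 24.5% and 17% of all genes. Cebpa (2.03, SE 0.18, adjusted p = 1.16e-08) and Cebpd (-2.59, SE 0.19, adjusted p = 9.26e-10) changed at least 3-fold, beside 1.46% of all genes. Pparg rose by 1.42 (SE 0.18, adjusted p = 1.8e-06). Srebf1, which was at 59.1, 61.5 and 62.0 FPKM at day 0, had -0.20 (95% interval -0.45 to 0.06, adjusted p = 0.224). Rxrg had 0.23 (-0.19 to 0.65, adjusted p = 0.399), from 2, 2 and 6 reads at day 0, and from -0.03 to 1.44 under other settings. Cebpb was lower at day 7 (-0.77, SE 0.20, adjusted p = 0.0042).

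**Figure D3:**
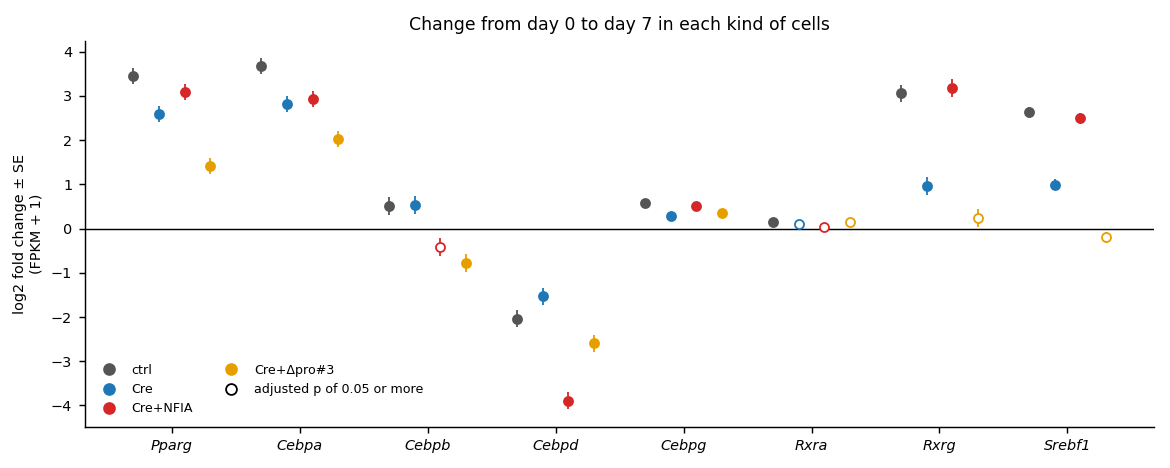
Log2 fold change from day 0 to day 7 on the log2(FPKM + 1) scale (vertical axis), with its standard error, of each factor in ctrl, Cre, Cre + NFIA and Cre + Δpro#3 cells. Open points did not pass the adjusted p. Pparg and Cebpa are above 0 in all 4 kinds of cells and Cebpd below 0 in all 4, while Srebf1 is above 0 in all but Cre + Δpro#3.

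Whether a difference between cells was itself different at day 7 and day 0 was tested as an interaction. For Cre against ctrl, 5 factors had an interaction below 0 and 0 above, beside 19.5% and 29.7% of all genes, with Rxrg at -2.10 (SE 0.29, adjusted p = 5.46e-06) and Srebf1 at -1.63 (SE 0.18, adjusted p = 3.71e-07). For Cre + NFIA against Cre, 2 were above 0 and 2 below, beside 18.8% and 30.1% of all genes. Cebpd had -2.36 (SE 0.27, adjusted p = 4.82e-07) and Cebpb -0.96 (SE 0.29, adjusted p = 0.00877), while Srebf1 had 1.498 (SE 0.18, adjusted p = 6.15e-07) and Rxrg 2.23 (SE 0.29, adjusted p = 2.03e-06). With limma voom the interactions of Rxrg were not called (-1.69, adjusted p = 0.325, and 0.78, adjusted p = 0.657). Cebpa had 0.11 (95% interval -0.42 to 0.64), so a difference between its day 0 and day 7 responses to NFIA was not shown. For Cre + Δpro#3 against Cre, 5 were below 0 and 0 above, beside 10.4% and 7.79% of all genes, among them Cebpb (-1.31, SE 0.29, adjusted p = 0.0031), Srebf1 (-1.19, SE 0.18, adjusted p = 0.000124) and Pparg (-1.17, SE 0.25, adjusted p = 0.00268).

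Known targets of PPARγ in adipocytes were set beside the factors as a list of 18 genes, among them Fabp4, Lpl and Adipoq, the 3 with the highest mean. All 18 were tested. Fabp4, a fatty acid carrier, was at 17544 FPKM in ctrl, 4963 in Cre-labelled libraries, 14618 in Cre + NFIA and 1042 in Cre + Δpro#3 at day 7 (means of 3). Adipoq, which encodes adiponectin, had means of 1887, 499, 1786 and 117 FPKM in these groups, and the lipase gene Lpl had 1762, 727, 1634 and 267 FPKM. All 18 targets were lower in Cre-labelled libraries than in ctrl (median -1.85), higher in Cre + NFIA than in Cre (median 1.79) and lower in Cre + Δpro#3 than in Cre (median -1.96), beside medians of 0.09, -0.06 and 0.02 over all genes. Of all genes 22.7% were lower in the first, 27% higher in the second and 10% lower in the last. With quantile normalization 17 were called in each of the first 2 comparisons. Between Cre + NFIA and ctrl 1 was higher and 1 lower, beside 8.81% and 9.15% of all genes. These targets include adipocyte markers, whose sums are given above.

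At day 0 full-length NFIA and the mutant each had 5 targets higher and 3 lower than Cre-labelled libraries (medians 0.14 and 0.10, beside 0.02 and 0.01 for all genes), beside 14.7% and 9.26% of all genes higher and 12.9% and 9.02% lower. With quantile normalization full-length NFIA had 3 higher and 3 lower. Between day 0 and day 7 all 18 rose in each kind of cells, with medians of 5.86 in ctrl, 4.27 in Cre, 5.83 in Cre + NFIA and 2.35 in Cre + Δpro#3. In the same order 32.9%, 30%, 31.8% and 24.5% of all genes were higher at day 7. The medians over all genes were -0.05, 0.05, -0.05 and 0.05.

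Genes that handle SREBP or respond to it formed a list of 12, with Insig1, Fasn and Scd1 the highest. At day 7, 7 were lower and 4 higher in Cre-labelled libraries than in ctrl (median -0.70, with 7 lower and 2 higher under median-of-ratios scaling), 7 higher and 2 lower in Cre + NFIA than in Cre (median 0.62), and 6 lower and 0 higher in Cre + Δpro#3 than in Cre (median -0.29). Scd1, a fatty acid desaturase, was at 1144 FPKM in ctrl, 255 in Cre-labelled libraries, 1939 in Cre + NFIA and 94.8 in Cre + Δpro#3. Fasn, the fatty acid synthase, had means of 634, 236, 628 and 81.4 FPKM in these groups, and Insig1, which retains SREBP in the endoplasmic reticulum, had 631, 200, 528 and 59.4 FPKM. Over all genes 36.1% were higher and 22.7% lower in the first of these comparisons, 27% and 35.9% in the second and 7.7% and 10% in the last. At day 0 these 12 genes gave 3 higher and 1 lower with full-length NFIA, or 2 higher with median-of-ratios scaling, beside 14.7% and 12.9% of all genes. With the mutant 0 were higher and 1 lower, beside 9.26% and 9.02%.

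**Figure D4:**
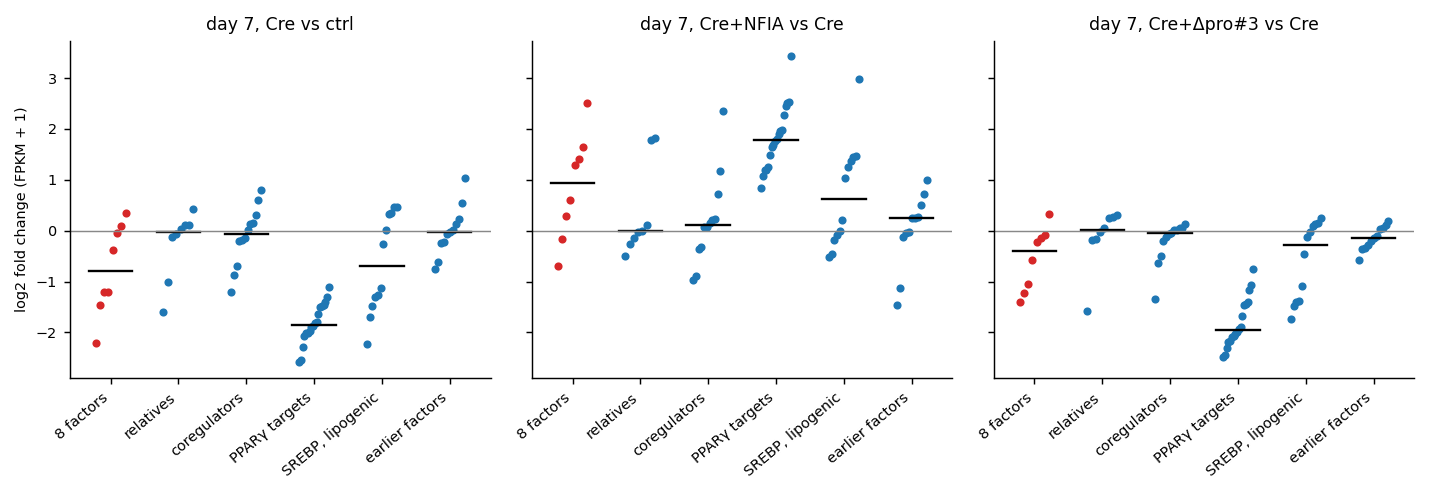
Log2 fold change on the log2(FPKM + 1) scale (vertical axis) of each tested gene of the 8 factors and 5 gene lists, in the 3 comparisons at day 7 that are named above the panels. Each point is a gene and each bar the median of its list. The 18 PPARγ targets lie below 0 in the first and last panel and above 0 in the middle panel, while the medians of relatives, coregulators and earlier factors lie between -0.15 and 0.25.

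Of 9 relatives of the factors 8 were tested, and at day 7 in Cre-labelled libraries 1 was higher and 2 lower than in ctrl (median -0.02), beside 36.1% and 22.7% of all genes, so the counts were near or below those shares. Among them was Ddit3, which encodes the C/EBP relative CHOP, at 91.2 FPKM in ctrl and 122 FPKM in Cre-labelled libraries (0.42, adjusted p = 0.000352). With full-length NFIA 2 were higher and 2 lower than in Cre (median -0.01), beside 27% and 35.9% of all genes. Ddit3 had -0.49 (adjusted p = 7.96e-05) and Srebf2, which regulates cholesterol genes, -0.27 (adjusted p = 0.000636). With the mutant 3 were higher and 2 lower (median 0.01), beside 7.7% and 10% of all genes, or 1 higher and 2 lower with median-of-ratios scaling. Named after their values were seen, Nr1h3, which encodes the liver X receptor LXRα, was at 78.9 FPKM in ctrl, 26.1 in Cre-labelled libraries, 89.1 in Cre + NFIA and 8.06 in Cre + Δpro#3 at day 7, and Ppara had means of 2.18, 0.572, 4.53 and 0.391 FPKM in these groups. With median-of-ratios scaling the medians of the last 2 comparisons changed sign, to 0.07 and -0.03.

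Of 12 coactivators and corepressors of nuclear receptors, 3 were higher and 5 lower in Cre-labelled libraries than in ctrl at day 7, 5 higher and 4 lower in Cre + NFIA than in Cre, and 0 higher and 3 lower in Cre + Δpro#3 than in Cre. Over all genes the shares were 36.1% higher and 22.7% lower, 27% and 35.9%, and 7.7% and 10%. Medians were -0.06, 0.12 and -0.05. With median-of-ratios or quantile scaling 8 were higher and 4 lower in the second of these. Ppargc1a, which encodes the coactivator PGC-1α and was named after its values were seen, was at 1.44 FPKM in ctrl, 0.343 in Cre-labelled libraries, 5.86 in Cre + NFIA and 0.157 in Cre + Δpro#3.

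Factors that act before Pparg and Cebpa, 11 of 12 tested, gave 3 higher and 4 lower in Cre-labelled libraries than in ctrl at day 7, 6 higher and 2 lower in Cre + NFIA than in Cre, and 0 higher and 3 lower in Cre + Δpro#3 than in Cre (medians -0.03, 0.25 and -0.15). The shares of all genes in these comparisons were 36.1% higher and 22.7% lower, 27% and 35.9%, and 7.7% and 10%. At day 0 full-length NFIA had 4 higher and 0 lower, beside 14.7% and 12.9% of all genes, and the mutant 2 higher and 3 lower, beside 9.26% and 9.02%. Klf4, an early activator of Cebpb, was at 43.7 FPKM in Cre-labelled libraries and 64.5 FPKM in Cre + NFIA at day 0 (0.56, adjusted p = 0.00536), and the mutant had 47.0 FPKM (0.12, adjusted p = 0.552). Stat5a was higher with both proteins at day 0 (0.37, adjusted p = 0.0205, and 0.38, adjusted p = 0.0241). Ebf1, a factor of early fat commitment, was lower with the mutant (-0.32, adjusted p = 0.00123).

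Among the factors themselves, Pearson's r of log2(FPKM + 1) over the 24 libraries was 0.988 between Pparg and Cebpa, 0.930 between Pparg and Srebf1 and 0.932 between Pparg and Rxrg, and -0.820 between Pparg and Cebpd. Between Pparg and Cebpb it was 0.106, and between Cebpb and Cebpd 0.371. Over the 12 libraries of day 7 alone, r was 0.994 between Pparg and Cebpa and -0.854 between Pparg and Cebpd. These values describe groups that differ in day and in cells and are given without a test.

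The genes whose pattern over the 24 libraries was most like that of Pparg were Mcam (r = 0.992), Irs1 (0.990) and Fitm2 (0.989), and those most like Cebpa were Mcam (0.990), Irs1 (0.989) and Dlc1 (0.985). The ranking depends on the libraries used. Over the 12 libraries of day 7 alone, the genes most like Pparg were Prkar2b (0.9996), Chpt1 (0.9991) and Retn (0.998). The values below are again over all 24. Srebf1 was most like Acads (0.995), Acadvl (0.995) and Dot1l (0.994), of which Acads and Acadvl encode fatty acyl-CoA dehydrogenases. Rxrg was most like Suclg1 (0.9897), Etfdh (0.9896) and Slc25a34 (0.9895). Cebpd was most like Il4ra (0.977), Gpr39 (0.965) and Igsf8 (0.962), and Cebpg like Rgs2 (0.961), Gpam (0.958) and Selenbp1 (0.949). For Cebpb the values were lower, with Psmd3 (0.898), Pgam1 (0.870) and Dvl1 (0.868), as they were for the level gene Rxra, with Mgrn1 (0.833), Acy3 (0.812) and Kif7 (0.800).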

How the data were processed

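RNA-seq libraries were prepared with a strand-specific poly(A) kit. Per the labels and the study's methods, the authors aligned reads with STAR (version 2.5.3a) to mm9, counted unique reads on the matching strand of each gene and deposited FPKM values, 1 table per library. No value was normalized again for the main results.

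Values were tested as log2(FPKM + 1) with limma 3.58.1 (R 4.3.3, trended variance, Benjamini-Hochberg adjustment over 12640 genes, threshold 0.05). A minimum of 1 FPKM in 3 libraries was required. Contrasts between cells at 1 time point were fitted on its 12 libraries, and changes over time and interactions used all 24. FPKM steps gave whole reads for 100% of values (within 0.05 reads), 7733000 to 14622000 reads per library, and 3 reads correspond to 0.205 to 0.388 FPKM for a gene of 1 kilobase. These floors cover counting error only. The recovered reads were tested with limma voom as an alternative. The script was tested on simulated data.

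The 8 genes and all gene lists were chosen with earlier results of these data known. List genes were named as the 3 with the highest mean FPKM, others after their values were seen, and likeness was ranked by Pearson's r. Symbols altered to dates (26 in the tables) were not used for naming. The values of 1 list gene are not reported here.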

Additional observations from a re-analysis of the deposited data

Results flagged for a closer look

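The tests below are of differences between cells that themselves differed between day 0 and day 7, as log2 values on the log2(FPKM + 1) scale from limma over 24 libraries. No rule for single outlying samples was applied to groups of 3 libraries, but each fit was repeated without each library of the compared groups in turn. The interactions share libraries and are not independent of each other.

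For Cre-labelled libraries against ctrl, the day 7 difference was lower than that of day 0 by -0.85 for Pparg (adjusted p = 0.0083), -0.86 for Cebpa (adjusted p = 0.00813), -0.29 for Cebpg (adjusted p = 0.041), -2.10 for Rxrg (adjusted p = 5.46e-06) and -1.63 for Srebf1 (adjusted p = 3.71e-07). The call of Rxrg was lost by limma voom (-1.69, adjusted p = 0.325), it had -1.08 at a pseudocount of 5, and it includes a day 0 comparison with Cre-labelled libraries in which Rxrg had 0 reads. The call of Cebpg was lost under 2 of 10 other settings and without any of 8 of 12 libraries and was -0.23 without ctrl day 0 replicate 3 (adjusted p = 0.114).

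For Cre + NFIA against Cre it was -0.96 for Cebpb (adjusted p = 0.00877), -2.36 for Cebpd (adjusted p = 4.82e-07), 2.23 for Rxrg (adjusted p = 2.03e-06) and 1.498 for Srebf1 (adjusted p = 6.15e-07). The call of Rxrg was lost by limma voom (0.78, adjusted p = 0.657), it had 1.26 at a pseudocount of 5, and it rests on the same Cre-labelled libraries with 0 reads at day 0. Cebpb and Cebpd were higher with NFIA at day 0, and at day 7 Cebpd was lower and Cebpb was not called.

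For Cre + Δpro#3 against Cre it was -1.17 for Pparg (adjusted p = 0.00268), -0.79 for Cebpa (adjusted p = 0.0351), -1.31 for Cebpb (adjusted p = 0.0031), -1.06 for Cebpd (adjusted p = 0.00954) and -1.19 for Srebf1 (adjusted p = 0.000124). The call of Cebpa was lost under 4 of 10 other settings, with the highest adjusted p by limma voom (-0.73, adjusted p = 0.128), and without any of 7 of 12 libraries. It was -0.53 without Cre + Δpro#3 day 7 replicate 1 (adjusted p = 0.0999). Adipocyte marker sums moved with the day 7 differences, as given above, and their part was not tested.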

How the results depend on the processing

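Of 2378 values of the 8 factors under other settings, 2282 stayed on their side of the threshold, 73 calls were lost, 23 were gained and 0 called values reversed. Among values not called in either fit 32 changed sign. Of 82 calls 67 passed in every alternative. Fitting the groups compared alone lost 9 calls and gained 2, and gave 1 factor for Cre + NFIA against ctrl at day 7, Rxrg (adjusted p = 0.0375). Median-of-ratios scaling lost 3 and gained 4, and quantile normalization lost 3 and gained 3. With a minimum mean of 5 FPKM Rxrg was not tested, and Pparg was not tested at day 0. Leaving out 1 library gave 0 to 1 factors for Cre against ctrl at day 0 and 3 to 6 for Cre + NFIA against ctrl at day 0. For Pparg the interaction of Cre + NFIA against Cre was called with a pseudocount of 5 (0.75, adjusted p = 0.00153) and with median-of-ratios scaling (0.62, adjusted p = 0.0454). The cause was not tested. Same-numbered libraries did not deviate together (r from -0.274 to 0.201), so the numbers were not taken as pairs. With the replicate block 1 call was lost, that of Rxrg in Cre + NFIA against Cre at day 0 (0.29, adjusted p = 0.0519), and 2 were gained, those of Cebpb at day 7 for full-length NFIA against Cre (0.29, adjusted p = 0.0126) and for the mutant against full-length NFIA (-0.37, adjusted p = 0.00306). The gene lists were recomputed with other scalings, with the block and without Cre day 7 replicate 3, alternatives chosen after seeing the data. Low reads limit Rxrg at day 0.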
